A study of Mus musculus with 6 samples.

Results

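Productive and out-of-frame immunoglobulin heavy-chain joins were compared within each of 6 libraries of rearranged genomic DNA from splenic B cells of 12-week-old C57BL/6 mice. Other cells had been removed with antibodies on magnetic columns. VDJ-seq, the library method, captures joins from DNA rather than from transcripts. A sequence counted as productive where the deposited table marked it functional, and as out-of-frame where the table marked its V and J parts as not in frame. Of 228609 sequences, 167455 (73.2%) were productive and 50909 (22.3%) were out-of-frame. The remaining 10245 sequences (4.48%) were in frame but not productive, and entered neither group. The libraries differ in DNA input (labelled 500ng, 1ug, 2_5ug and 5ug) or in the labelled polymerases (Q5_vent and Q5_Q5). They held between 6332 and 82314 productive sequences, and between 1971 and 25000 out-of-frame ones. The labels do not say whether libraries came from separate mice, so the p-values rest on the spread between libraries, which may be technical. Those from limma, a linear-model fit, also pool the variance over genes and can be far smaller than 6 libraries alone would give. DNA carries no expression of marker genes, so the cell type on the label was not checked here.

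A heavy-chain gene is assembled in a developing B cell by joining a D gene to a J gene and then a V gene to that D-J join. Enzymes trim the ends and add bases at both junctions, NP1 between V and D and NP2 between D and J, and the CDR3 spans these junctions. Joins whose V and J frames differ make no heavy chain. They survive in cells whose other allele made a productive one, and are for that reason widely used as a record of joining without selection on the protein. A D gene can be read in each of its frames. In most mouse D genes the frame whose codons open at D base 3 is rich in tyrosine and glycine, and the frame at base 2 often holds a stop codon. The frame at base 1 allows a D-J join to make the truncated Dµ protein, which is known to block B cell development.

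Out-of-frame CDR3 lengths left a remainder of 1 base in 25777 sequences and of 2 bases in 25112 when counted in codons. Of the productive CDR3s, 167451 had a length in whole codons. The tables marked a stop codon in 40.4% of out-of-frame sequences and in 0 productive ones, as the definition of the groups requires.

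The germline D and J sequences show which parts of the CDR3 each gene can give. They are the commonest full-length segments in the deposited sequences, written 5′ to 3′ along the coding strand. In the D genes, capitals mark stop codons, all of which lie in the frame that opens at base 2.
Ighd1-1: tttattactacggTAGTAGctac
Ighd2-5: cctactaTAGTAActac
Ighd2-4: tctactaTGAttacgac
Ighd2-2: tctactatggttacgac
Ighd3-2: agacagctcaggctac
Ighd4-1: cTAActgggac
In the J genes, capitals mark the bases that can lie within the CDR3, up to the conserved tryptophan codon.
Ighj1: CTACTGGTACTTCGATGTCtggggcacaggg
Ighj2: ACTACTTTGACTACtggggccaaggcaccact
Ighj3: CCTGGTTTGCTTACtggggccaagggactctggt
Ighj4: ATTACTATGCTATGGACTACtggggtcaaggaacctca
The genes lie on mouse chromosome 12. In RefSeq's GRCm38 annotation Ighd1-1 is at chr12:113482170-113482192, Ighd4-1 at chr12:113430528-113430538 and Ighj4 at chr12:113428514-113428567. Ighj1 and Ighj4 give 19 and 20 bases to an untrimmed CDR3, whereas Ighj2 and Ighj3 give 14 bases each.

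Productive joins used the longer J genes more often than out-of-frame joins did. Ighj4 ranged from 28.0% to 29.5% of productive sequences (median 28.7%), against 20.1% to 23.5% of out-of-frame ones (median 22.8%). Ighj1 ranged from 18.5% to 20.2% (median 19.2%) of productive and from 15.7% to 16.5% (median 16.1%) of out-of-frame sequences. For both genes, every productive value lay above every out-of-frame value. Ighj3 showed the opposite order without overlap, at 21.4% to 23.7% (median 22.5%) of productive and 27.6% to 30.2% (median 29.4%) of out-of-frame sequences. Ighj2 made up 27.7% to 31.4% (median 29.6%) of productive and 30.4% to 35.1% (median 32.2%) of out-of-frame sequences, and these ranges overlapped between libraries. Within libraries the difference was +6.42 ± 1.09 percentage points for Ighj4 and +3.21 ± 0.535 for Ighj1. It was -6.70 ± 0.917 for Ighj3 and -2.94 ± 0.591 for Ighj2 (SD of productive minus out-of-frame, n = 6 libraries). Each of these differences had the same direction in 6 of 6 libraries (exact two-sided sign-flip permutation test, p = 0.03125, the smallest p that 6 libraries allow; adjusted p = 0.0368 over 33 single values).

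The Ighj2 difference turned with the treatment of heavily trimmed joins. The files mark some sequences as having an unclear primer tag. Among joins lacking 6 or more J bases, 99.9% of Ighj2 and 99.9% of Ighj3 sequences carried this mark, against 1.81% of Ighj2 and 0.584% of Ighj3 joins that kept more. Whether the J call is right in such joins was not tested. Unclear tags made up 6.31% to 10.5% of productive sequences and 14.0% to 19.4% of out-of-frame ones. Without them Ighj2 was at 25.4% of productive and 24.9% of out-of-frame sequences, a difference of +0.48 (exact permutation p = 0.03125, n = 6). Ighj1 then differed by +1.68, Ighj3 by -6.91 and Ighj4 by +4.76 percentage points. Heavily trimmed joins were 20.3% ± 2.82 of productive and 35.6% ± 2.76 of out-of-frame Ighj2 joins, and 10.1% ± 2.59 of productive and 17.4% ± 4.05 of out-of-frame Ighj3 joins. For Ighj1 the shares were 10.01% ± 0.417 of productive and 10.05% ± 0.551 of out-of-frame joins (exact permutation p = 0.875), and for Ighj4 32.3% ± 0.986 of productive and 31.1% ± 1.58 of out-of-frame joins (exact permutation p = 0.0625). The trimming measures were added after the data were seen.

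**Figure D1:**
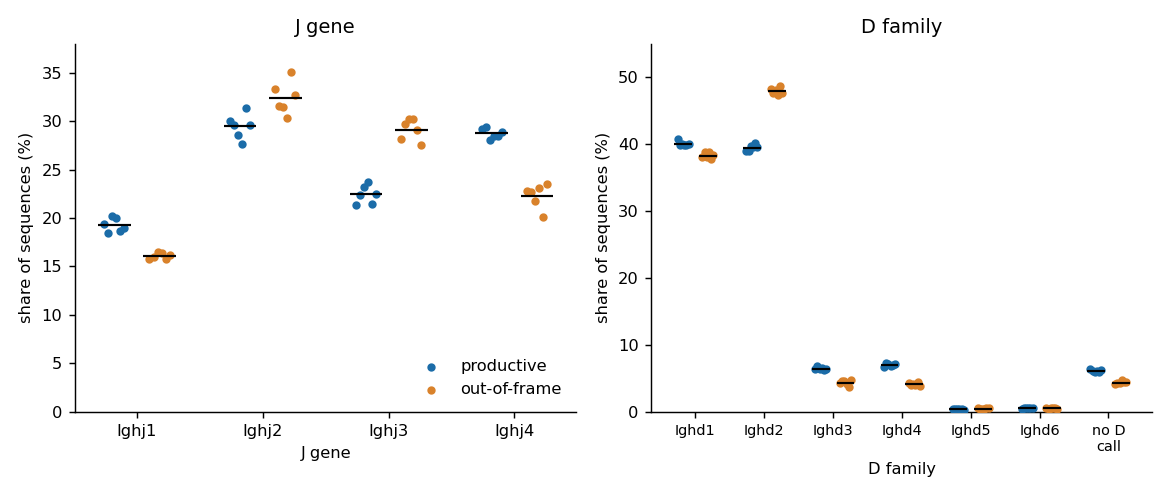
Share of sequences (%, y axes) with each J gene (left) and D family (right) in the 6 libraries, productive in blue and left of out-of-frame in orange; points are libraries and black lines their means. Productive sequences lay at 28.0% to 29.5% for Ighj4 and 39.0% to 40.1% for Ighd2, and out-of-frame sequences at 20.1% to 23.5% and 47.4% to 48.6%.

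Among the D genes, the Ighd2 (DSP2) family took a smaller share of productive joins, and the Ighd3 (DST4) and Ighd4 (DQ52) families a larger one. Ighd2 was at 39.0% to 40.1% (median 39.5%) of productive and 47.4% to 48.6% (median 47.9%) of out-of-frame sequences. Ighd4 was at 6.74% to 7.22% (median 7.03%) of productive and 3.88% to 4.48% (median 4.09%) of out-of-frame sequences. Ighd3 was at 6.19% to 6.81% (median 6.35%) of productive and 3.69% to 4.79% (median 4.42%) of out-of-frame sequences. In all 3 families the ranges did not overlap. The within-library differences were -8.46 ± 0.501 percentage points for Ighd2, +2.86 ± 0.317 for Ighd4 and +2.09 ± 0.371 for Ighd3 (SD, n = 6, exact sign-flip permutation p = 0.03125 for each). Sequences with no D call were 6.11% ± 0.222 of productive and 4.34% ± 0.22 of out-of-frame sequences, a difference of +1.76 (exact permutation p = 0.03125). The rare Ighd5 and Ighd6 families differed by -0.0616 ± 0.121 and +0.0335 ± 0.129 percentage points (exact permutation p = 0.3125 and p = 0.5625).

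The largest family, Ighd1 (DFL16), had 40.1% ± 0.335 of productive and 38.3% ± 0.403 of out-of-frame sequences, a difference of +1.77 ± 0.605 (exact permutation p = 0.03125, n = 6). This direction changed when D calls that name several genes, 42.0% of all D calls, were left out. With D calls naming a single gene, Ighd1 was at 57.0% of productive and 61.2% of out-of-frame sequences, a difference of -4.16. That setting drops every call to Ighd2-1, Ighd2-2, Ighd2-4 and Ighd2-5 but 10.9% of those to Ighd1-1. Its shares are of the sequences left, so the totals differ from those above. Whether this accounts for the reversal was not tested. Over V genes whose in-frame joins were productive in 90% or more of cases, the Ighd1 difference was +0.708 (exact permutation p = 0.3125).

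Of 22 D genes tested with limma on counts of sequences, 7 were higher in productive joins and 5 were lower, which is 54.5% of those tested at an adjusted p under 0.05. Ighd2-5 was lowest, at 5.93% ± 0.245 of productive and 9.14% ± 0.492 of out-of-frame sequences (log2 ratio -0.61 ± 0.02 SE, limma adjusted p = 1.96e-55). Its germline sequence, printed above, holds 2 adjacent stop codons, as does that of Ighd1-1, whose log2 ratio was 0.05. Ighd2-1, Ighd2-4 and Ighd2-3 followed with log2 ratios of -0.31, -0.26 and -0.23, while the rare Ighd5-5 was at -0.42. Ighd2-2, whose germline has no stop codon in the 3 frames, was at 4.09% ± 0.15 of productive and 3.94% ± 0.413 of out-of-frame sequences (log2 ratio 0.15, limma adjusted p = 1.66e-04), but was higher in only 4 of 6 libraries. Ighd4-1 had the largest rise, a log2 ratio of 0.76 ± 0.03 (limma adjusted p = 3.81e-42). Ighd3-1, Ighd3-3 and Ighd3-2 followed at 0.61, 0.60 and 0.58, and Ighd1-2 and Ighd1-1 at 0.38 and 0.05. These calls depended on how D calls were read. With D calls naming a single gene, Ighd3-1 turned to -1.21 and Ighd1-1 to -0.11, as shares of the sequences left. Then 6 D genes were called, out of fewer than 22 tested, since every call to some genes was left out. With D segments of 8 or more bases Ighd3-1 was at -0.13 (limma adjusted p = 0.855). Calls that name several genes were 100% of those to Ighd2-1, Ighd2-2, Ighd2-4 and Ighd2-5 and 94.8% of those to Ighd3-1, against 10.9% for Ighd1-1, 4.71% for Ighd3-2, 4.38% for Ighd2-3 and 0.876% for Ighd4-1. The remaining 10 genes did not pass the test. Their log2 ratios were -0.30 for Ighd2-9, -0.16 for Ighd6-2, -0.12 for Ighd2-12, -0.11 for Ighd5-2, -0.09 for Ighd2-10, -0.08 for Ighd1-3, -0.04 for Ighd5-1, 0.05 for Ighd2-13, 0.13 for Ighd6-1 and 0.17 for Ighd2-14. The annotation holds 12 of the 22 D gene names, so several calls may stand for a closely similar gene of another strain.

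The D reading frame differed widely between the groups. It was read on from the V side, and the size of the difference depends on that choice. An out-of-frame join has another D frame on its J side. There base 3 took 51.8% ± 2.07 of Ighd2-4, 50.2% ± 2.75 of Ighd2-5 and 44.6% ± 0.939 of Ighd1-1 out-of-frame segments, more than on the V side. Frames with a germline stop codon are partly fixed by the definition of a productive join. For Ighd1-1, codons opened at base 3 in 70.6% to 71.6% of productive segments (median 71.1%), against 25.6% to 29.5% of out-of-frame ones (median 28.0%). For Ighd2-4 the values were 88.0% to 89.1% (median 88.7%) of productive and 23.6% to 26.1% (median 24.5%) of out-of-frame segments. For Ighd2-5 they were 97.6% to 99.4% (median 98.4%) and 23.6% to 28.1% (median 24.3%) in the same order. Among frames without a germline stop, base 3 took 93.4% ± 0.317 of productive and 34.1% ± 0.622 of out-of-frame segments of the Ighd2 family. In the Ighd1 family, where frames were read for Ighd1-1 alone, it took 75.6% ± 0.552 of productive and 40.7% ± 1.49 of out-of-frame segments. These differences, +59.3 ± 0.838 and +34.9 ± 1.22 percentage points, had the same sign in 6 of 6 libraries (exact permutation p = 0.03125, n = 6; adjusted p = 0.0368).

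The commonest full-length segment called Ighd2-2, printed above, holds no stop codon in any frame. That gene name is not in the annotation used, and every Ighd2-2 call also names another D gene. Productive Ighd2-2 segments were read at base 3 in 65.8% ± 1.96 of cases, at base 2 in 16.7% ± 1.5 and at base 1 in 17.4% ± 1.16. Out-of-frame segments read on from V were at 26.4% ± 4.2, 36.4% ± 4.29 and 37.2% ± 3.6 for the same bases. Read back from J they were at 48.5% ± 5.12, 27.7% ± 7.57 and 23.8% ± 5.88. The base 1 share of Ighd2-4, a frame with no germline stop, was 2.93% ± 0.442 of productive segments. In out-of-frame segments it was 43.7% ± 2.43 read on from V but 7.14% ± 1.07 read back from J.

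Ighd3-2 and Ighd4-1, the genes of the Ighd3 and Ighd4 families whose frames were read, departed from this pattern. Ighd3-2 has no germline stop codon and no tyrosine codon at base 3. It was read at base 2 in 47.0% ± 1.76 of productive and 32.5% ± 2.64 of out-of-frame segments, and at base 1 in 20.5% ± 2.17 and 33.3% ± 3.46. Its base 3 share was 32.6% ± 0.748 of productive and 34.2% ± 3.57 of out-of-frame segments, a difference of -1.67 ± 3.83 (exact permutation p = 0.34375, n = 6). For Ighd4-1 the base 3 share among stop-free frames was 51.8% ± 3.17 of productive and 45.7% ± 2.1 of out-of-frame segments, with overlapping ranges and a difference of +6.10 ± 3.79 (exact permutation p = 0.03125). That call was lost without clones found in several libraries (+4.43, exact permutation p = 0.09375) and with D segments of 8 or more bases (+3.49, exact permutation p = 0.25).

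In an out-of-frame join the D segment has one frame with V and another with J. Read back from J, the frame at base 1 was rare in out-of-frame segments called Ighd2-1, Ighd2-3, Ighd2-4 and Ighd2-5. It took 5.35% to 8.11% (median 7.44%) of out-of-frame Ighd2-4 segments and 5.37% to 11.7% (median 7.6%) of Ighd2-5 segments. In Ighd1-1 it took 17.7% to 21.1% (median 20.1%). An even use of frames would give 33.3%, and each of these genes lay below that in 6 of 6 libraries (exact permutation p = 0.03125; adjusted p = 0.0441 over 24 shares). Ighd2-2 segments were at 23.8% ± 5.88, ranging from 19.3% to 35.6%, and lay below an even share in 5 of 6 libraries (exact permutation p = 0.0625, adjusted p = 0.0789). From the V side, base 1 took 43.7% ± 2.43, 45.4% ± 3.21 and 40.1% ± 0.698 of the same out-of-frame Ighd2-4, Ighd2-5 and Ighd1-1 segments. The V and J frames of an out-of-frame join must differ, so these sets of shares are not independent of each other. Ighd3-2 and Ighd4-1 had J-side base 1 shares of 32.4% ± 4.35 and 30.2% ± 2.79 (exact permutation p = 0.71875 and p = 0.0625). The J-side frame was examined after the data were seen. In productive joins the frame was the same from both sides for 99.998% of segments.

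**Figure D2:**
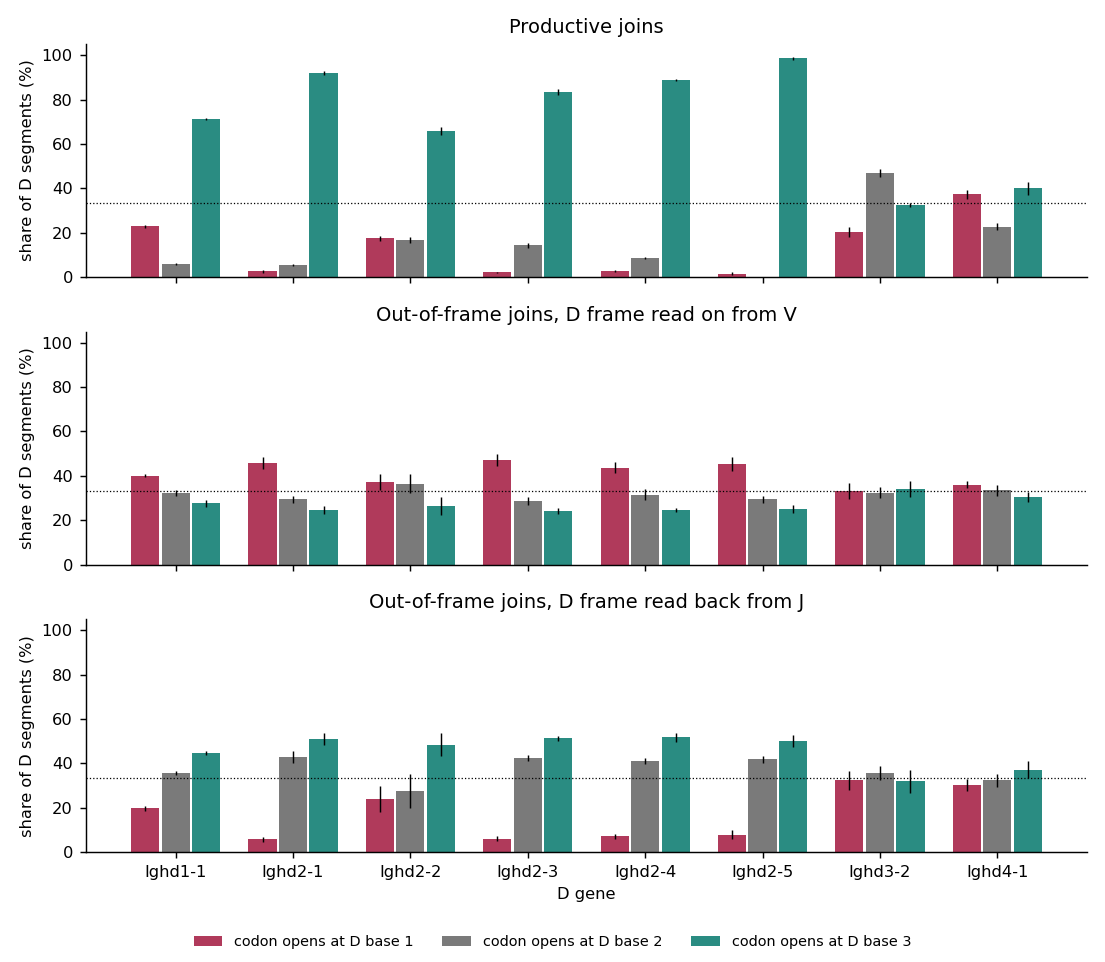
Share of D segments (%, y axes) whose codons open at D base 1, 2 or 3, for 8 D genes (x axis), in productive joins (top), in out-of-frame joins read on from V (middle) and in out-of-frame joins read back from J (bottom); bars are means and lines SD over 6 libraries, and the dotted line is an even 33.3%. Base 3 reaches 98.5% in productive Ighd2-5 joins, and base 1 stays at 8.02% or below on the J side of the out-of-frame Ighd2-1, Ighd2-3, Ighd2-4 and Ighd2-5 joins.

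CDR3 lengths were more tightly spread in productive joins. The SD over sequences was 6.80 to 6.85 bases (median 6.83) in productive and 8.26 to 8.52 bases (median 8.29) in out-of-frame joins, a difference of -1.51 ± 0.0934 (n = 6 libraries, exact permutation p = 0.03125). The mean length was 37.83 to 37.98 bases (median 37.89) in productive and 38.34 to 38.82 bases (median 38.49) in out-of-frame joins. Both measures separated the groups without overlap, and the mean differed by -0.63 ± 0.164 bases (exact permutation p = 0.03125). CDR3s of 60 or more bases were 0.352% ± 0.0353 of productive and 1.63% ± 0.15 of out-of-frame sequences. Those under 24 bases were 0.362% ± 0.0236 of productive and 0.842% ± 0.0862 of out-of-frame sequences. Productive joins were thus rarer beyond both cuts in 6 of 6 libraries. Frame sets which lengths can occur in each group. The cut at 24 bases takes in out-of-frame CDR3s of 23 bases (0.34% ± 0.118) but not productive ones of 24 bases (0.537% ± 0.0895). The size of the difference at the short end therefore depends in part on the cut.

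The difference in mean length was set out by J gene and D family. It was -1.52 bases within Ighj1 and -1.87 within Ighj4, against -0.60 within Ighj2 and -0.55 within Ighj3 (exact permutation p = 0.03125 for each). The Ighj1 difference less those of Ighj2 and Ighj3 came to -0.92 and -0.97 bases, and the differences of Ighj2 and Ighj3 less that of Ighj4 to 1.27 and 1.33 bases. These did not pass the threshold after adjustment (exact permutation p = 0.03125, adjusted p = 0.0625 over 12 pairs of genes). Without unclear primer tags the overall difference was -1.23 bases. That setting drops 99.9% of Ighj2 and Ighj3 joins lacking 6 or more J bases. Of such Ighj1 and Ighj4 joins it drops 0.58% and 3.23%. It also drops more of the out-of-frame sequences (17.7%) than of the productive ones (9.22%), so it changes the lengths of the groups unequally. Within the Ighd3 family the difference in mean length was -0.09 bases (exact permutation p = 0.71875). Within Ighd4 it turned to +0.42 bases, at 34.0 bases in productive and 33.6 bases in out-of-frame joins (exact permutation p = 0.03125). Over the V genes with 90% or more of in-frame joins productive it was -0.32 bases.

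By part, productive CDR3s had shorter D segments and fewer NP2 bases but more J bases. The D segment averaged 11.5 bases ± 0.0177 in productive and 12.2 bases ± 0.0519 in out-of-frame joins (difference -0.69 ± 0.0506). NP2 averaged 3.19 bases ± 0.0151 in productive and 3.52 bases ± 0.0516 in out-of-frame joins (difference -0.34 ± 0.0627). J bases averaged 13.4 ± 0.099 in productive and 12.5 ± 0.157 in out-of-frame joins (difference +0.91 ± 0.0925). For these 3 parts the ranges of the libraries did not overlap (exact permutation p = 0.03125, n = 6, for each). Within the Ighd3 and Ighd4 families the D difference was -0.14 and -0.173 bases (exact permutation p = 0.40625 and p = 0.09375), and the NP2 difference was -0.146 within Ighj3 and -0.0623 within Ighd4 (exact permutation p = 0.0625 and p = 0.3125). The J difference was +0.23 without unclear primer tags, a setting that drops heavily trimmed Ighj2 and Ighj3 joins. Within Ighj1 the J difference was +0.02 (exact permutation p = 0.5625), and within Ighj4 it was -0.09 (exact permutation p = 0.09375).

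V bases in the CDR3 averaged 6.02 ± 0.0173 in productive and 6.44 ± 0.0465 in out-of-frame joins (difference -0.42 ± 0.0469, exact permutation p = 0.03125). Over V genes with 90% or more of in-frame joins productive this difference was -0.08. Of the 5 parts NP1 differed least, at 4.29 bases ± 0.0201 in productive and 4.40 bases ± 0.0615 in out-of-frame joins (difference -0.10 ± 0.0723, exact permutation p = 0.03125). The NP1 call was lost without sequences with indels (-0.0795, exact permutation p = 0.0625), and the medians of both groups were 4 bases. Junctions with 0 added bases went opposite ways at the ends of D. NP1 was empty in 8.80% ± 0.232 of productive and 10.5% ± 0.333 of out-of-frame joins, whereas NP2 was empty in 15.5% ± 0.0981 of productive and 12.4% ± 0.465 of out-of-frame joins, each in the same direction in 6 of 6 libraries.

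**Figure D3:**
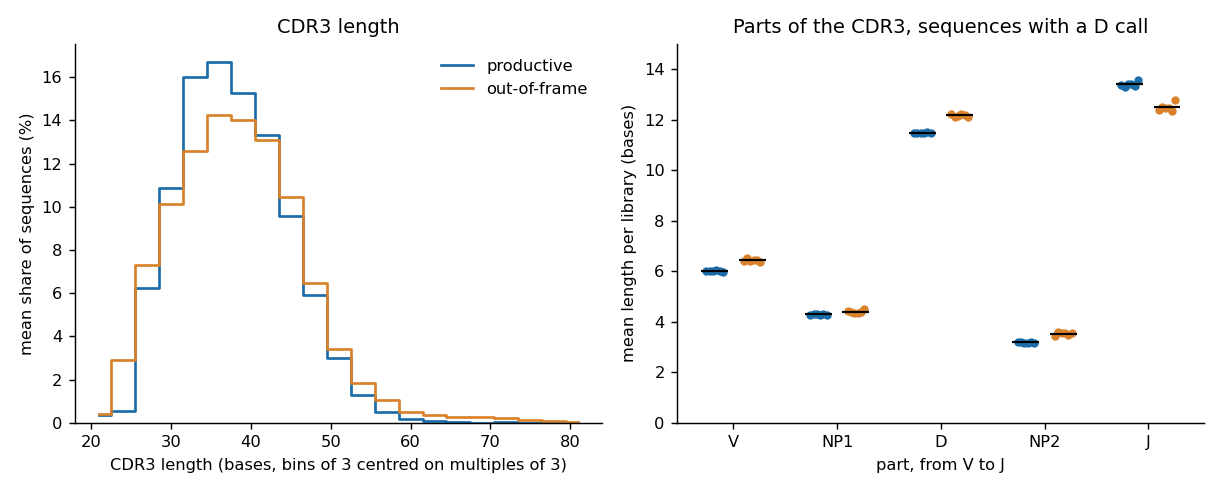
Left, mean share of sequences (%, y axis) over 6 libraries by CDR3 length in bins of 3 bases centred on whole codons (x axis), productive in blue and out-of-frame in orange. Right, mean length in bases of each part of the CDR3 (x axis, from V to J), with 1 point per library and productive left of out-of-frame; D segments average 11.5 bases in productive and 12.2 bases in out-of-frame joins.

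V gene usage differed across nearly the whole locus. Of 113 V genes with 100 or more sequences, 57 were higher and 51 lower in productive joins (limma adjusted p under 0.05), which is 95.6% of those tested, and the median log2 ratio was 0.21. Families were grouped by their place in the locus. The distal families Ighv1 (J558) and Ighv8 made up 66.7% to 67.6% (median 67.1%) of productive and 45.9% to 47.5% (median 47.0%) of out-of-frame sequences. The D-proximal families Ighv2 and Ighv5 made up 10.4% to 10.8% (median 10.6%) of productive and 23.8% to 25.2% (median 24.9%) of out-of-frame sequences. The families between them made up 22.3% ± 0.247 of productive and 28.5% ± 0.433 of out-of-frame sequences. The 3 differences were +20.4 ± 0.859, -14.1 ± 0.583 and -6.24 ± 0.428 percentage points, each with groups that did not overlap (exact permutation p = 0.03125, n = 6). A large part of the D-proximal difference lay in 1 gene, Ighv5-2, at 0.111% ± 0.0166 of productive and 6.59% ± 0.659 of out-of-frame sequences.

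Within the distal families, Ighv1 was the one with the larger productive share. Of its 54 genes tested, 37 were higher and 14 lower, and it held 62.0% ± 0.429 of productive and 40.4% ± 0.667 of out-of-frame sequences. Of 4 Ighv14 genes, 4 were higher, and the family held 3.63% ± 0.194 of productive and 1.61% ± 0.21 of out-of-frame sequences. Ighv9 had 3 of 4 genes higher, with 4.43% ± 0.221 of productive and 2.38% ± 0.175 of out-of-frame sequences. By contrast 8 of 9 Ighv2 genes were lower and 1 was higher, and the family held 3.94% ± 0.14 of productive and 10.2% ± 0.601 of out-of-frame sequences. Ighv5 was split, with 7 of 12 genes lower and 5 higher. Ighv8 was split despite its distal place, with 3 genes higher and 4 lower, and it held 5.10% ± 0.242 of productive and 6.34% ± 0.282 of out-of-frame sequences.

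Ighv1-80 had the largest rise, with 2.12% to 2.25% (median 2.19%) of productive and 0.303% to 0.589% (median 0.477%) of out-of-frame sequences. It lies at chr12:115912344-115912637, at the far end of the locus, and its log2 ratio was 2.07 ± 0.10 (limma adjusted p = 7.42e-14). Ighv1-84 and Ighv1-82 followed at 1.79 and 1.77, and Ighv14-1 and Ighv14-2 at 1.57 each. Ighv1-22, Ighv1-42, Ighv1-15, Ighv1-53 and Ighv1-85 lay between 1.40 and 1.5. The most used V gene, Ighv1-26, took 5.67% to 6.11% (median 6.02%) of productive and 2.44% to 2.97% (median 2.78%) of out-of-frame sequences (log2 ratio 1.09 ± 0.04, limma adjusted p = 5.11e-15). All 10 of the most used genes were higher in productive joins. Use was counted over both groups together, in which productive sequences are the majority, so this list favours genes with many productive joins. Among these 10 genes Ighv3-6, Ighv1-64, Ighv8-8, Ighv1-55 and Ighv1-50 had log2 ratios of 1.03 to 1.39, Ighv1-72, the V gene of the classical anti-nitrophenyl response, 0.94, and Ighv1-18 0.54.

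In the lowest V genes most in-frame joins carried a stop codon. In a pseudogene this can partly fix the fall by the definition of the groups. V germline sequences were not read, so whether that holds for the other genes is not known. Ighv3-2, an annotated pseudogene, gave 1 productive and 476 out-of-frame sequences, 1566-fold lower in share over the pooled libraries (95% exact counting interval 280 to 61970). Ighv1-27, also a pseudogene, gave 1 productive and 248 out-of-frame sequences, 816-fold lower (145 to 32349). These intervals cover counting error only. Of 15 V genes with under 50% of in-frame joins productive, 15 were lower. They include Ighv11-1, Ighv1-23, Ighv6-5, Ighv1-11, Ighv1-62-3, Ighv5-1 and Ighv4-2, with log2 ratios from -6.50 to -4.51. Of the 15 genes, 5 are annotated pseudogenes. The in-frame share counts the same productive joins as the ratio does. For the other genes it therefore does not show that the fall is fixed by the groups. Of 8 annotated pseudogenes tested, 7 were lower, and Ighv7-3 was higher with a log2 ratio of 0.36 and 94.3% of in-frame joins productive.

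Ighv5-2 (VH81X), the D-proximal gene whose heavy chains are known to pair poorly with the surrogate light chain, was the most used V gene of the out-of-frame joins. It lies at chr12:113578504-113578990 and took 0.0804% to 0.126% (median 0.116%) of productive and 5.78% to 7.4% (median 6.49%) of out-of-frame sequences. The groups lay far apart, with a log2 ratio of -5.81 ± 0.10 (limma adjusted p = 1.46e-20). Only 30.0% of its in-frame joins were marked productive. With all in-frame sequences, stop codons included, set against out-of-frame ones, the log2 ratio of Ighv5-2 was -4.17 (limma adjusted p = 3.28e-19).

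Among the 72 V genes with 90% or more of in-frame joins productive, 57 were higher and 10 were lower in productive joins. This cut counts the same productive joins as the ratio does, so it favours genes that are higher in productive joins. The split is therefore not independent of the cut, which was also used above for Ighd1, CDR3 length and V bases. The 10 lower genes were Ighv2-6-1, Ighv2-4, Ighv2-3, Ighv5-4, Ighv3-1, Ighv2-5, Ighv9-4, Ighv5-12-1, Ighv5-6 and Ighv10-1, with log2 ratios from -1.44 to -0.23. Ighv2-4, for example, took 0.186% ± 0.0341 of productive and 0.452% ± 0.0533 of out-of-frame sequences. These 10 genes were picked out after their values were seen.

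**Figure D4:**
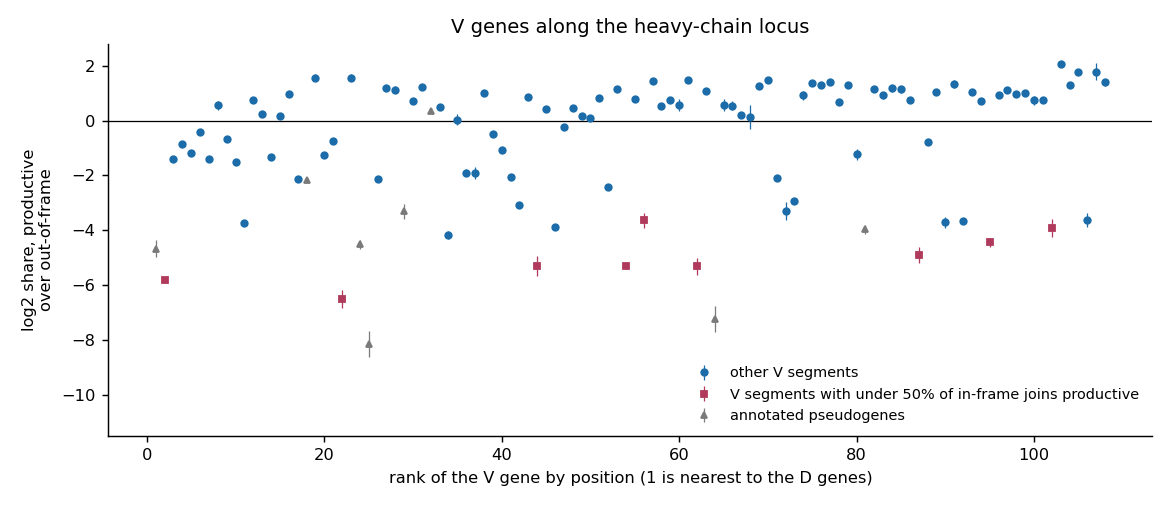
Log2 ratio of the share in productive over out-of-frame sequences (y axis, ± SE of the limma fit) for V genes with an annotated position, ranked along the locus from the D genes outward (x axis). Annotated pseudogenes (triangles) and V segments with under 50% of in-frame joins productive (squares) hold the lowest values, and Ighv1-80, at 2.07, the highest.

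Ighv11-2 and Ighv12-3 are the V genes of the phosphatidylcholine-binding antibodies of B-1 cells, another B cell type that a spleen can hold. Ighv11-2 took 0.135% to 0.265% (median 0.23%) of productive and 0.792% to 1.3% (median 0.991%) of out-of-frame sequences, with a log2 ratio of -2.14 ± 0.11 (limma adjusted p = 5.01e-13). Ighv12-3 took 0.234% to 0.379% (median 0.272%) of productive and 1.85% to 2.75% (median 2.33%) of out-of-frame sequences, with a log2 ratio of -3.07 ± 0.07 (limma adjusted p = 2.2e-18). Both genes were lower in productive joins in 6 of 6 libraries.

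The J genes joined to each are given as counts pooled over the libraries, with no test. Of 373 productive Ighv11-2 sequences, 321 (86.1%) used Ighj1 and 5 (1.34%) used Ighj3, against 93 (18.6%) and 150 (30.0%) of 500 out-of-frame ones. A single CDR3 made up 91 of the 321 productive Ighv11-2 to Ighj1 sequences. It is shown with its D segment, called Ighd2-5, in capitals.
Ighv11-2 to Ighj1 CDR3: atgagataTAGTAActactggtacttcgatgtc
With each clone (same V, J and CDR3) counted once per library, Ighj1 was in 130 of 182 productive (71.4%) and 92 of 491 out-of-frame (18.7%) Ighv11-2 clones. Of 465 productive Ighv12-3 sequences, 232 (49.9%) used Ighj1 and 136 (29.2%) used Ighj4, against 209 (17.5%) and 263 (22.0%) of 1193 out-of-frame ones. A single clone supplied 103 of the 136 productive Ighv12-3 to Ighj4 sequences, and 35 of 282 productive Ighv12-3 clones (12.4%) used Ighj4.

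A CDR3 also recurred among out-of-frame sequences. Ighv2-6 joined to Ighj1 in 301 of 710 out-of-frame sequences, of which 217, spread over the 6 libraries, had the CDR3 below, with its Ighd2-4 segment in capitals. Its 46 bases are not a whole number of codons.
Ighv2-6 to Ighj1 CDR3: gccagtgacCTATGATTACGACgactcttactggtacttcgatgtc
Counted by clone, Ighj1 was in 89 of 498 out-of-frame (17.9%) Ighv2-6 clones. Clones found in several libraries made up 2.38% of productive and 3.24% of out-of-frame sequences.

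V and J genes were also counted as pairs. Of 366 pairs with 100 or more sequences, 190 were higher and 131 lower in productive joins, which is 87.7% of those tested (limma adjusted p under 0.05). The highest were Ighv1-80 with Ighj4 (log2 ratio 2.34 ± 0.20), Ighv14-2 with Ighj4 (2.28 ± 0.28), Ighv1-80 with Ighj2 (2.21 ± 0.26), Ighv1-82 with Ighj4 (2.02 ± 0.16) and Ighv1-80 with Ighj1 (1.95 ± 0.21). Ighv5-2 with Ighj2 gave 16 productive and 1162 out-of-frame sequences (log2 ratio -7.81 ± 0.29, limma adjusted p = 9.23e-16). Ighv1-11 with Ighj3 gave 7 and 362 in the same order (log2 ratio -6.87 ± 0.34). The pseudogene Ighv3-2 gave 0 productive and 143 out-of-frame sequences with Ighj3, at least 157-fold lower when 3 counts are allowed over the productive group. With Ighj4 it gave 0 and 104, at least 114-fold lower, and with Ighj2 it gave 1 and 162, 533-fold lower (95% exact counting interval 94.3 to 21175).

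Pairing beyond the usage of each gene was stronger in productive joins. Cramér's V, which is 0 where V family and J gene are independent and was computed at 1971 sequences per group and library, was 0.0862 to 0.0927 (median 0.0894) in productive and 0.00421 to 0.0436 (median 0.0253) in out-of-frame joins. The groups did not overlap, with a difference of +0.0619 ± 0.014 (exact permutation p = 0.03125, n = 6). In the fit of observed over expected counts for V family by J gene, 13 of 51 combinations were higher and 14 were lower in productive joins, which is 52.9% of those tested (limma adjusted p under 0.05). Without the 2_5ug library the fit called 17, on the 4 libraries of the input series alone it called 16, and without unclear primer tags it called 16. Leaving out any 1 library gave between 17 and 30 calls. The number of combinations tested can change with the libraries and sequences kept, so these counts are not directly comparable.

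Ighv12 paired with Ighj1 more often than expected in productive joins, at 1.26 ± 0.217 on the log2 scale of observed over expected, against 0.05 ± 0.201 in out-of-frame joins (difference 1.21 ± 0.13 SE, limma adjusted p = 3.88e-04). Its pairing with Ighj3 and Ighj2 was at -1.40 ± 1.15 and -1.06 ± 0.347 in productive and at -0.05 ± 0.144 and 0.01 ± 0.143 in out-of-frame joins. Ighv2 paired less with Ighj2 (-0.96 ± 0.102 in productive and -0.05 ± 0.123 in out-of-frame joins) and more with Ighj4 (0.65 ± 0.0484 and -0.03 ± 0.137). Ighv4 paired less with Ighj2 (difference -1.05 ± 0.11 SE) and more with Ighj1 (0.61 ± 0.09 SE). Ighv13 with Ighj2 was lower by a difference of -0.72, and Ighv6 with Ighj3 and Ighv3 with Ighj1 were higher by 0.56 and 0.51.

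**Figure D5:**
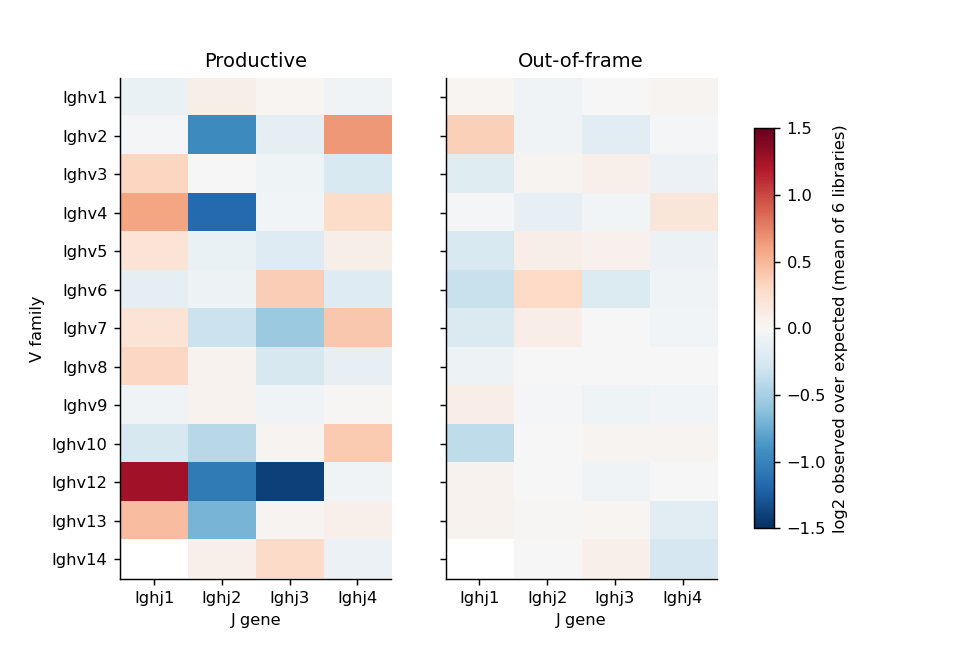
Log2 of observed over expected counts (colour, mean of 6 libraries) for each V family (rows) and J gene (columns), productive left and out-of-frame right; blank cells had an expected count under 5 in some library and were not tested. Ighv12 with Ighj1 stands at 1.26 in productive and 0.05 in out-of-frame joins.

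D-J pairing differed less between the groups than V-J pairing did. In the fit for D gene by J gene, 1 of 40 combinations was called, which is 2.5% of those tested, and 0 were lower (limma adjusted p under 0.05); at an unadjusted p under 0.05, 4 were higher and 5 lower. It was Ighd2-4 with Ighj3, at 0.56 ± 0.052 in productive and 0.34 ± 0.0648 in out-of-frame joins on the log2 scale of observed over expected. Other combinations lay just above the threshold. Among them were Ighd4-1 with Ighj1 (difference 0.39) and with Ighj3 (difference -0.18, limma adjusted p = 0.053 for each). The limma fit called 0 combinations without the 500ng library, and likewise without 5ug, Q5_vent or Q5_Q5 (8 to 11 at an unadjusted p under 0.05), and 6 without 1ug. Cramér's V for D gene and J gene was 0.107 to 0.128 (median 0.125) in productive and 0.0912 to 0.1 (median 0.0975) in out-of-frame joins, a difference of +0.0249 ± 0.00766 in 6 of 6 libraries (exact permutation p = 0.03125). Both groups thus lay well above 0 for D-J pairing, and their ranges did not overlap.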

How the data were processed

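The deposited tables hold 1 row per assembled, deduplicated sequence with its gene calls, frame marks and lengths in bases. The submitters' processing notes name Bowtie2 (version 2.3.2), Trim Galore (version 0.4.4) and, as build, mm10. Per the file headers the CDR3 came from IgBLAST, with no version stated. Gene, D frame and CDR3 parts were taken from these columns, with the first gene of each call. Each library gave 1 productive and 1 out-of-frame value, compared by an exact two-sided sign-flip permutation test with Benjamini-Hochberg adjustment over 33 single values, 5 of them added after the data were seen. Numbers of sequences per gene (100 or more) were fitted with limma 3.58.1 (voom, library as a block) in R 4.3.3, and pairing with limma on log2 observed over expected numbers with a pseudocount of 0.5 and an expected number of 5 or more. The V gene, D gene and V-J pair fits were also run on simulated counts with known changes. Those counts varied between libraries by counting error alone, so they cannot test the p-values where libraries vary more. Named genes were every J and D gene, the 10 most used V genes, the 10 V genes and 5 pairs with the largest ratios in each direction and in 6 of 6 libraries, and 3 set V genes. The groups and lists were chosen with earlier results of these data known. Positions are from RefSeq's GRCm38.p6, which named 108 of the 113 V genes tested.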

Additional observations from a re-analysis of the deposited data

Results flagged for a closer look

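For 33 single values, the difference between productive and out-of-frame joins was screened over the 6 libraries for a library standing apart, and 3 did so, where chance would give about 1.65. In the 1ug library, Ighj2 joins lacking 6 or more J bases differed by -10.6 percentage points, closer to 0 than in the others. The share of base 3 among stop-free frames of the Ighd2 family differed by +61.0 percentage points in the 1ug library, more than elsewhere. In the 500ng library, the D gene and J gene Cramér's V differed by +0.00959, less than elsewhere.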

How the results depend on the processing

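Without unclear primer tags Ighj2 reversed to +0.478 percentage points and V family by J pairing gave 16 calls. With D calls naming a single gene, Ighd1 reversed to -4.16 points, Ighd1-1 to -0.11 and Ighd3-1 to -1.21 (log2), joins without NP bases to +0.0347 points, and 6 D genes were called among the fewer tested. That setting leaves out every call to Ighd2-1, Ighd2-2, Ighd2-4 and Ighd2-5. With D segments of 8 or more bases Ighd3-1 reversed to -0.13 (log2), NP1 was at -0.0613 bases and the Ighd4 frame at +3.49 points. Without clones of several libraries the Ighd4 frame was at +4.43 points, and over V genes with 90% or more of in-frame sequences productive it was at +5.37 and Ighd1 at +0.708. NP1 was at -0.0795 bases without sequences with indels. With medians, NP1, NP2 and V bases each differed by 0. Within Ighj1, NP1 reversed to +0.027, V bases were at -0.304 and J bases at +0.0225. Within Ighj3, NP1 was at -0.0509 and NP2 at -0.146. Within Ighj4, J bases reversed to -0.0916 and joins without NP bases to +0.00693 points. Within Ighd2, NP1 reversed to +0.0135. Within Ighd3, CDR3 length was at -0.0859, NP1 at -0.246, D length at -0.14 and V bases at -0.408. Within Ighd4, CDR3 length reversed to +0.423 and joins without NP bases to +0.174 points, NP1 was at -0.0622, NP2 at -0.0623 and D length at -0.173. D gene by J pairing gave 7 calls with all in-frame sequences, 0 with 1 count per clone, without clones of several libraries, in the input series alone and with D segments of 8 or more bases, 2 without indels and with single-gene D calls, 6 without unclear tags, 4 with 5 or more reads, 8 with a pseudocount of 2 and 6 with a minimum expected count of 20. Leaving out 1 library gave 0 to 6 D-J and 17 to 30 V-J pairing calls. The number of combinations tested can change between these settings, so the counts of calls are not directly comparable. V-J pairing gave 16 calls in the input series alone and 14 with a minimum expected count of 20, and V-J pairs gave 144 with a minimum of 500 sequences, where fewer pairs are tested. Other than that stated, the cause was not tested. With 5 libraries the exact test cannot go below 0.0625. Of 477 alternatives for the main results, 429 kept their direction and call or stayed within the spread.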
